A study of Mus musculus with 4 samples.

Results

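The genes described here are 10 genes of the endolysosome: the mucolipin channel genes Mcoln1, Mcoln2 and Mcoln3, the two-pore channel genes Tpcn1 and Tpcn2, the transcription factor genes Mitf, Tfeb, Tfe3 and Tfec, and Gpnmb, a gene bound by those factors. They are 10 of 18193 genes that the array's annotation names with a single symbol, and they are read by 17 probe sets, every probe set whose only symbol is one of these genes. The set was chosen on measured zymosan and unstimulated values of these same arrays. The differences of the 10 genes between the groups are therefore given as a description, with no p-value. Counts of their probe sets past a threshold in the main fit stand beside the share of all probe sets past it. Nothing is read from such counts under any setting.

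The arrays hold RNA of mouse bone marrow-derived macrophages that all carry the MyD88 -/- genotype; MyD88 is the adaptor protein of most Toll-like receptors. Marrow cells were kept for 6 days in recombinant human M-CSF, under which they become macrophages. 2 arrays hold unstimulated cells taken at 0 minutes, and 2 hold cells treated for 120 minutes with 100 ug/ml zymosan, particles of yeast cell wall. In their titles the unstimulated arrays have LPS or PIC in the place where the zymosan arrays have ZYM. The design text says that both were grown alike, but whether the unstimulated cells were cultured alongside the zymosan-treated ones is not given in the sources used here. Biotin-labelled cRNA from 4 ug of total RNA was read on Affymetrix arrays. The stated question is which transcripts zymosan changes in macrophages without MyD88. No array of cells with intact MyD88 was analysed here, so nothing below shows what the deletion does. Whether both arrays of a group come from separate mice or cultures is not given in the sources used here, so their spread may be technical.

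Mucolipins (TRPML channels) and two-pore channels are cation channels of endosomes and lysosomes. Both respond to the endosomal lipid PI(3,5)P2, and two-pore channels are also opened through the messenger NAADP. Calcium leaving the lysosome through TRPML1 activates calcineurin, which removes phosphates from TFEB and lets it enter the nucleus, whereas the nutrient-sensing kinase complex mTORC1 keeps TFEB and TFE3 in the cytoplasm. In the nucleus the MiT/TFE factors bind E-boxes of the CLEAR network, a set of lysosomal and autophagy genes that includes Mcoln1. An array reads transcript, so channel activity, calcium and the location of a factor were not measured.

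The sequences upstream of the genes are shown because CACGTG, the E-box at the core of the CLEAR element, was searched for in them. RefSeq promoter windows on build GRCm38.p6 hold 250 bases before and 50 bases after an annotated start, and 14 windows were found for 9 of the 10 genes. Below are the 250 bases before the start of the 4 genes whose probe sets all read higher on the zymosan arrays, and of Mcoln1 for comparison. Each runs 5′ to 3′ on the strand of the gene, and capitals mark CACGTG. The windows are chr8:3500269-3500518 on the plus strand for Mcoln1, chr3:146149924-146150173 on the plus strand for Mcoln2, chr3:146121541-146121790 on the plus strand for Mcoln3, chr6:16898442-16898691 on the minus strand for Tfec and chr6:49036268-49036517 on the plus strand for Gpnmb.
Mcoln1: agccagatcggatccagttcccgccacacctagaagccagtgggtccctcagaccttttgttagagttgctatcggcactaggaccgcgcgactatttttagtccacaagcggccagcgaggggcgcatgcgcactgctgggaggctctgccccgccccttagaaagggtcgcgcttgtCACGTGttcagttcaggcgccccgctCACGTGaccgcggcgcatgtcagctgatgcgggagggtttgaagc
Mcoln2: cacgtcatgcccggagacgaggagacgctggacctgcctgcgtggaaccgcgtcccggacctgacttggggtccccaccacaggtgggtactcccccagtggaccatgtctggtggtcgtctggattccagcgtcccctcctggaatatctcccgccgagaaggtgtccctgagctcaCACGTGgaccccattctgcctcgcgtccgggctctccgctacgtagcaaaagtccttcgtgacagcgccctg
Mcoln3: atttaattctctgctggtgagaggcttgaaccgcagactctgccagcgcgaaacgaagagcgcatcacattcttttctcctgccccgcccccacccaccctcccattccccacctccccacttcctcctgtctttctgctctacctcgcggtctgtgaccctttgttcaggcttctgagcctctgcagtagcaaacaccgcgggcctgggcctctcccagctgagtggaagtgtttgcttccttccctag
Tfec: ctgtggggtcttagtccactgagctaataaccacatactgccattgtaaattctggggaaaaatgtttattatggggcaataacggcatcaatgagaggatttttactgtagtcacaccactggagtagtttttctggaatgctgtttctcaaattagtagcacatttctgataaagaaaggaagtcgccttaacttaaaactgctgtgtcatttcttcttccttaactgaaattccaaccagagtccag
Gpnmb: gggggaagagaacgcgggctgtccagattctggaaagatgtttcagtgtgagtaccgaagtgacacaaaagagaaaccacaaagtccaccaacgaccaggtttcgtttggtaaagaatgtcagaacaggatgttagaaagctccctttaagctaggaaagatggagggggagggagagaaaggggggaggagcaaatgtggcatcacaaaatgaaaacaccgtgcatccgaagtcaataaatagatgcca

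CACGTG stood in 2 of the 14 windows. Mcoln1 held it at 2 places, beginning 71 and 45 bases before the start, and Mcoln2 at 1 place, beginning 72 bases before the start. Of all 32851 windows of 300 bases in the table, 7.15% held it. On the zymosan arrays Mcoln2 read higher by 1.06 on the log2 scale. The Mcoln1 probe sets read slightly lower, by -0.28 to -0.13. Binding to the E-box was not measured, and its part in either difference was not tested. The related E-box CATGTG of the M-box, known from Mitf target genes of pigment cells, stood in 0 of the 14 windows and in 14.2% of all windows.

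3 motifs of factors that respond to microbial stimuli were searched in the same 300 bases on both strands. None of the 5 motifs contains another. The AP-1 motif TGANTCA stood in 2 of the 14 windows and in 7.81% of all windows. In Gpnmb it began 9 bases after the start, and the other match was in a window of Tfe3, 35 bases after the start. The NF-kB motif GGG and TTTCC with any 2 bases between them stood in 1 of the 14 windows, that of Tfec, where it spanned the start, and in 1.63% of all windows. GCGTGGGCG, a motif of the EGR factors, stood in 0 of the 14 windows and in 0.612% of all windows. A match describes letters in a window only. RefSeq's Mcoln3 models also extend upstream of the window shown, and that stretch was not searched.

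Before the genes are described, some facts of the arrays bear on each value. Values are log2 expression from RMA, a method that summarises the probes of a set, and a difference of 1 on that scale is a doubling. The median of an array lay between 4.92 and 4.95. The detection level used here, the 40th percentile of an array, lay between 4.36 and 4.39, and 27571 of 45037 probe sets reached it on at least 2 arrays. The settings records that accompany the arrays give hybridisation dates. The unstimulated arrays were hybridised 16 days apart, and both zymosan arrays on 1 day, 153 days after the first unstimulated array. Hybridisation day and zymosan therefore cannot be told apart. Nor can time and zymosan, because the unstimulated cells were taken at 0 minutes and the zymosan-treated cells at 120 minutes. The median absolute difference over kept probe sets was 0.15 within the unstimulated pair and 0.11 within the zymosan pair. The probe set of Myd88 itself read 8.72 and 8.78 on the unstimulated arrays and 8.37 and 8.40 on the zymosan arrays. The sources used here do not say whether it lies in the deleted part, so it does not check the genotype.

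Marker genes were read for the cells that such cultures could hold. All 12 macrophage markers were at or above the detection level on every array, and their summed linear level ran from 53516 to 58769 on the unstimulated arrays and from 48042 to 48415 on the zymosan arrays. 1 of the 12 rose and 6 fell (limma, adjusted p under 0.05), where 10.1% of all genes passed as higher and 6.73% as lower. The differences of the 12 ran from -2.77 for Cx3cr1 to 0.66 for Msr1 on the log2 scale. Of the granulocyte markers, 12 of 13 were detected on every array, and 9 of the 12 tested rose. The summed granulocyte level was 1251 to 1351 without zymosan and 5198 to 5404 with it. Mmp8 differed by 3.48, Mpo by 3.23 and S100a8 by 2.49 on the log2 scale. Mmp9 alone read lower, with a difference of -0.73. Cxcr2, a chemokine receptor of neutrophils, was the only granulocyte marker read that was below the level on every array. Mitf, Tfec and Gpnmb are also known from osteoclasts and pigment cells. The osteoclast markers Calcr and Ocstamp and the melanocyte markers Tyr, Tyrp1 and Mlana were below the level on every array. 6 of 8 osteoclast markers were detected on every array, with a summed level of 583 to 812 without zymosan and 786 to 796 with it, and 1 of the 6 tested rose. Melanocyte markers were detected for 3 to 5 of 8 genes, with a summed level of 284 to 317 without zymosan and 283 to 285 with it. In such bulk samples, fewer cells of a type and less RNA per cell cannot be told apart.

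Of the other marker lists, dendritic cell markers were detected for 6 of 8 genes on every array, with a summed level of 404 to 413 without zymosan and 352 to 357 with it. 1 of the 6 tested rose and 1 fell, and Xcr1 and Ccr7 were below the level on every array. B cell markers were detected for 4 or 5 of 6 genes, and 2 of the 5 tested fell. Their summed level was 797 to 1187 without zymosan and 505 to 544 with it. T and NK cell markers were detected for 1 of 6 genes, mast cell and basophil markers for 3 or 4 of 10, and stromal markers for 4 of 7. In these 3 lists and the melanocyte list limma passed 0 genes in either direction, and at an unadjusted p under 0.05 it passed 1 stromal marker as lower and 0 others. The part of any of these cells in the differences below was not tested.

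On the zymosan arrays 4 of the 10 genes read higher with every probe set (Mcoln2, Mcoln3, Tfec and Gpnmb), and the other 6 read lower with every probe set (Mcoln1, Tpcn1, Tpcn2, Mitf, Tfeb and Tfe3). In probe sets this is 6 higher and 11 lower. All 17 passed the filter, 14 of them on all 4 arrays and 3 through 1 group only. These 3 are both probe sets of Mcoln3, kept by the zymosan arrays, and 1 of Mcoln1, kept by the unstimulated arrays. The groups did not overlap for any of the 17 probe sets, which was also true of 60.6% of all kept probe sets.

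In the limma fit over all 27571 kept probe sets, 6 of the 17 were past the threshold as higher and 1 as lower, and 10 were not past it. Over the array, 8.48% of probe sets passed as higher and 7.45% as lower. The genes were chosen from this contrast, so nothing is read from these counts. The 6 higher probe sets are those of Mcoln2, Mcoln3, Tfec and Gpnmb, and the lower one belongs to Tpcn1. With 1 array left out, the 6 probe sets stayed higher and the 11 others stayed lower. Such a fit leaves 1 array in a group. Its calls of the 17 are given only in the closing section, beside those of all probe sets. With hybridisation day as a random block (the second estimate of the closing section) 6 were past the threshold as higher and 0 as lower. That fit passed fewer probe sets over the array than the main one, with the counts in the closing section.

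**Figure D1:**
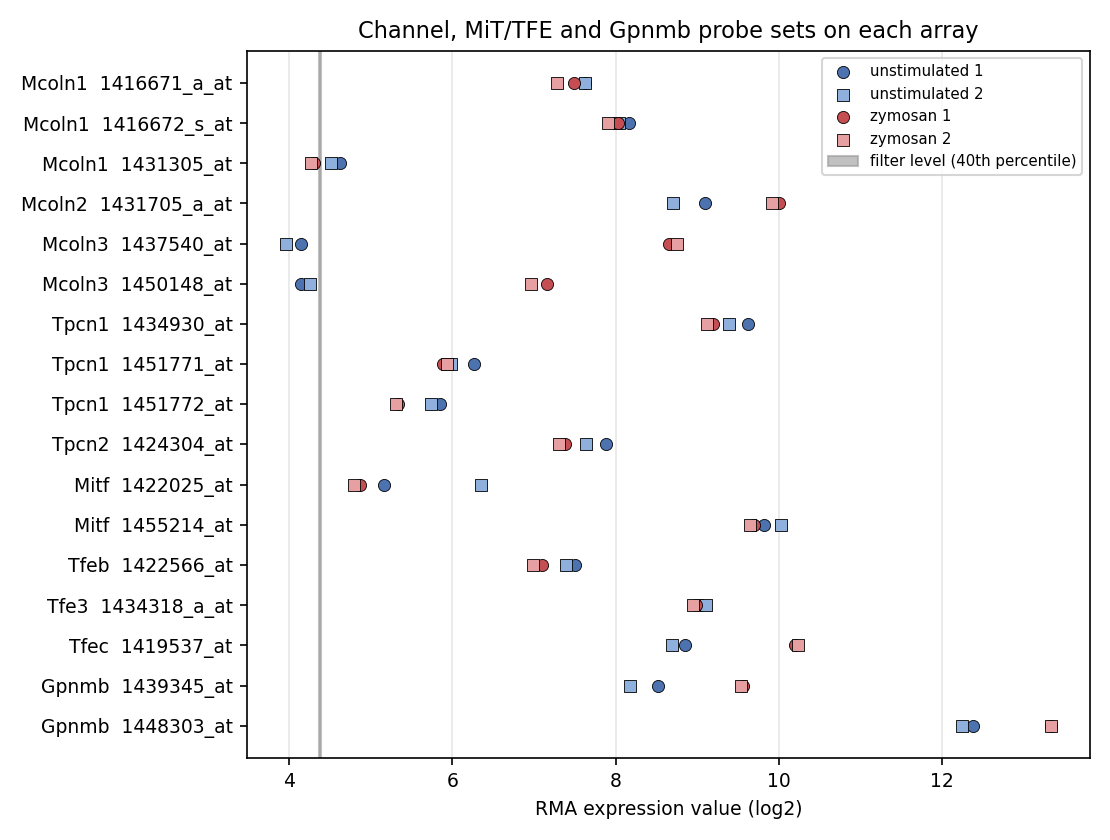
RMA log2 expression (horizontal axis) of each of the 17 probe sets, 1 row per probe set, with 1 point for each of the 2 unstimulated (blue) and 2 zymosan (red) arrays and a grey band at the detection level. Mcoln3 1437540_at sits at 3.96 and 4.14 without zymosan and at 8.65 and 8.75 with it, and Mitf 1422025_at is the probe set with the widest unstimulated pair, 5.16 and 6.35.

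Mcoln3 encodes TRPML3, a channel of early and late endosomes that is best known from the hair cells of the inner ear. Probe set 1437540_at read 4.14 and 3.96 on the unstimulated arrays and 8.65 and 8.75 on the zymosan arrays. Both unstimulated values lay below the detection level, and both zymosan values were far above it. The difference was 4.65 (SE 0.12), and leaving out each array in turn gave 4.56 to 4.74.

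A gene below the detection level in a group has only a bound there. The bound sets the mean of the brighter group against the dimmer group's mean of, per array, the higher of the detection level and the measured value. By it, 1437540_at was at least 19.8-fold higher with zymosan, and at least 13.5-fold with the level at the 50th percentile. At the 30th percentile the unstimulated arrays were no longer both below the level, so no bound was computed, and the fitted fold was 25.1. Csf1, which was above the level on all 4 arrays, read 21.1-fold higher with zymosan, so which of the genes differed more is not settled by the bound.

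The other Mcoln3 probe set, 1450148_at, read 4.15 and 4.26 without zymosan and 7.16 and 6.97 with it. Here too both unstimulated arrays were below the detection level and both zymosan arrays above it. The difference was 2.86 (SE 0.12), with 2.77 to 2.96 when each array was left out. The bound was at least 6.39-fold, and at least 4.36-fold with the level at the 50th percentile. The probe sets of Mcoln3 thus shared a direction and the same 2 arrays below the level, and differed in the size of the difference by 1.79 on the log2 scale.

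Mcoln2 encodes TRPML2, a channel of recycling endosomes that is known in immune cells for its part in chemokine release. Its only probe set read 9.09 and 8.70 on the unstimulated arrays and 9.995 and 9.92 on the zymosan arrays. Every array was well above the detection level, and the unstimulated arrays lay further apart than the zymosan arrays. The difference was 1.06 (SE 0.16), a 2.08-fold higher level, and lay within 0.86 and 1.25 with any 1 array left out.

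Mcoln1 encodes TRPML1, the widely expressed lysosomal channel that is lost in mucolipidosis type IV. 1416671_a_at read 7.62 and 7.63 without zymosan and 7.49 and 7.28 with it. The zymosan arrays were lower, and the difference of -0.24 (SE 0.12) was of about the same size as the gap of 0.20 between them. 1416672_s_at differed by -0.13 (SE 0.11) and 1431305_at by -0.28 (SE 0.11). The last read 4.63 and 4.51 without zymosan and was below the detection level on both zymosan arrays, a level at least 1.15-fold lower. The 3 mucolipin genes, which share a channel family, therefore lay in both directions, with fitted differences from -0.28 to 4.65. The probe sets at both ends of that range were below the detection level in 1 group.

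**Figure D2:**
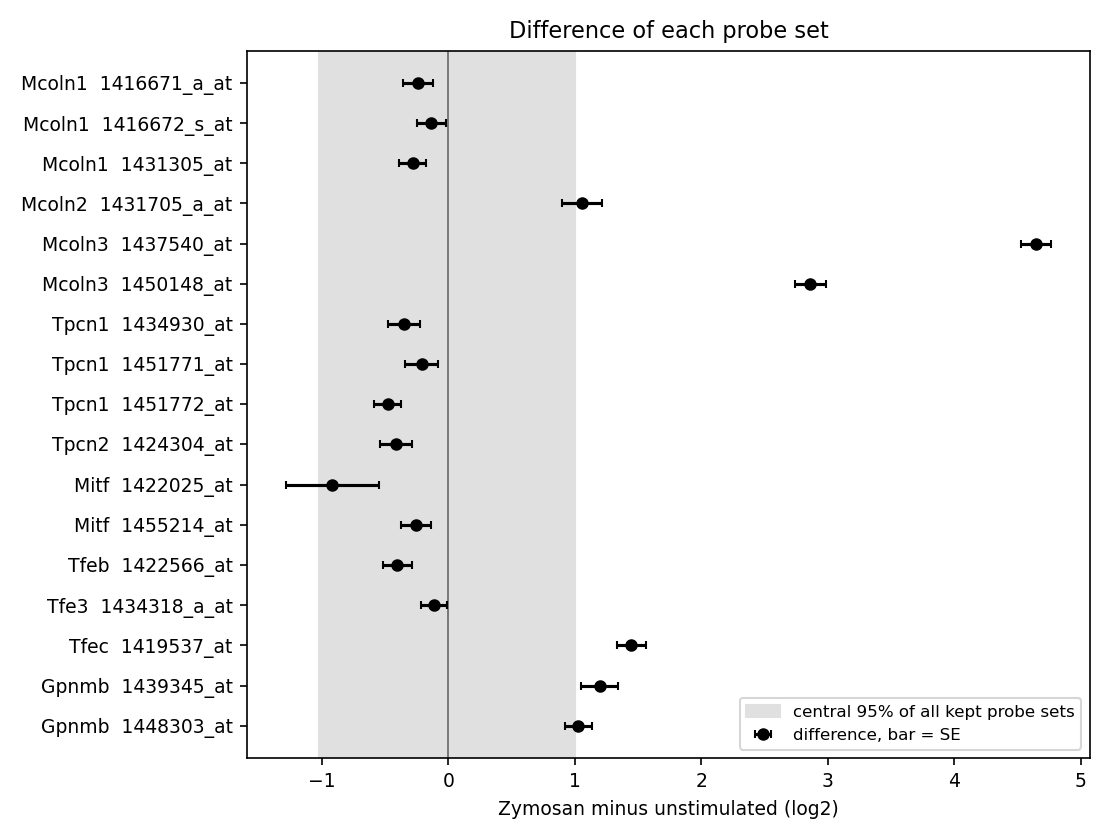
Zymosan minus unstimulated on the log2 scale (horizontal axis) for each probe set, in rows by family, with the standard error of the limma fit as bars and the central 95% of kept probe sets (-1.02 to 1.003) shaded. The 6 probe sets of Mcoln2, Mcoln3, Tfec and Gpnmb lie above the shaded range, and the 11 others lie inside it between -0.92 and -0.11.

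Mcoln2 is the next protein-coding gene after Mcoln3 on chromosome 3 in the RefSeq order of assembly GRCm38.p6. The genes around them were therefore read as well, 3 on each side. 7 probe sets of 4 neighbouring genes passed the filter, and limma over all probe sets passed 0 of them at an adjusted p under 0.05 and 1 at an unadjusted p under 0.05. Syde2, the nearest gene before Mcoln3 with a kept probe set, differed by 0.07 (SE 0.11, adjusted p = 0.711), and 2410004B18Rik beyond it by 0.36 (SE 0.15, adjusted p = 0.164).

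Wdr63, whose gene models overlap those of Mcoln3, did not pass the filter. It read 3.14 and 2.93 without zymosan and 2.69 and 2.80 with it, below the detection level on every array. On the far side of Mcoln2, Lpar3 was below the level on every array, between 2.76 and 3.08. The 2 kept probe sets of Ssx2ip differed by -0.06 (adjusted p = 0.849) and 0.32 (adjusted p = 0.116), and the 3 of Ctbs by -0.19 to -0.10. A p that misses the threshold does not show that a neighbour's level was the same in both groups.

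**Figure D3:**
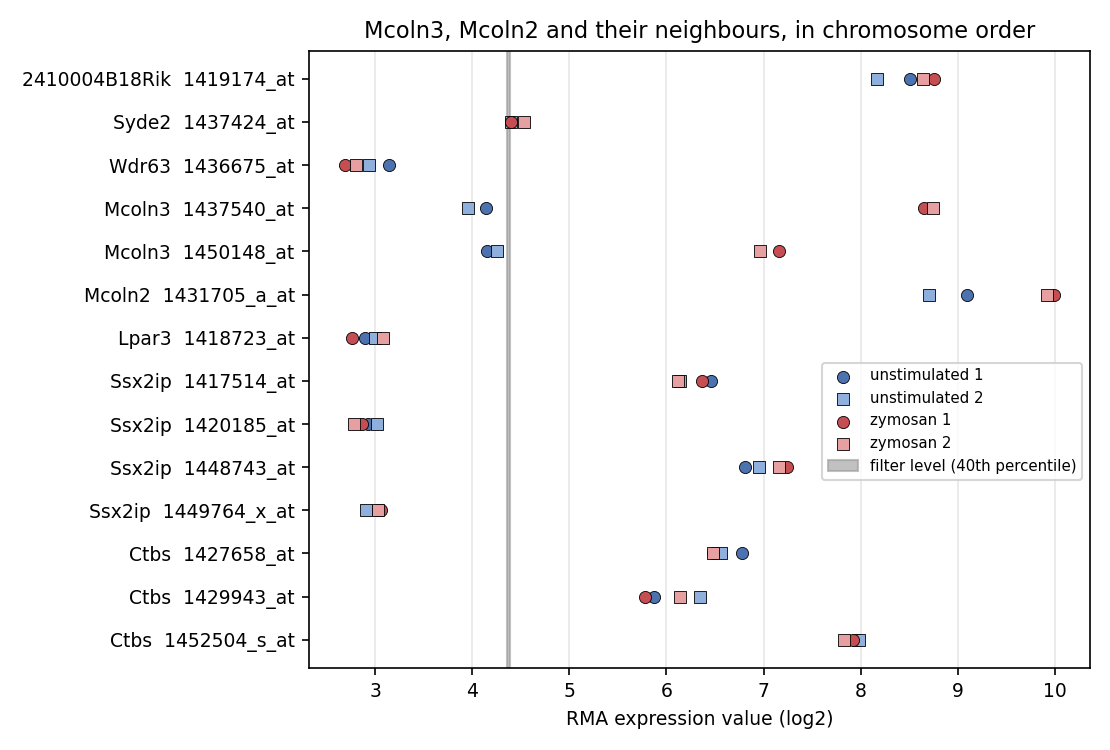
RMA log2 expression (horizontal axis) on each array for every probe set of Mcoln3, Mcoln2 and 3 protein-coding genes on each side, 1 row per probe set in chromosome order, with unstimulated arrays in blue, zymosan arrays in red and a grey band at the detection level. The groups stand apart by 4.65 and 2.86 for Mcoln3 and by 1.06 for Mcoln2, and by -0.29 to 0.36 for the neighbours.

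The two-pore channels read lower with every probe set. Tpcn2 encodes TPC2, the channel of late endosomes and lysosomes. It read 7.88 and 7.63 on the unstimulated arrays and 7.38 and 7.31 on the zymosan arrays. The zymosan arrays were close to each other and both below the lower unstimulated array. The difference was -0.42 (SE 0.13), with -0.54 to -0.29 when each array was left out.

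Tpcn1 encodes TPC1, which sits on earlier endosomal compartments. 1451772_at read 5.85 and 5.74 without zymosan and 5.33 and 5.31 with it, and both pairs were narrow beside the gap between them. Its difference was -0.48 (SE 0.11), with -0.53 to -0.42 when each array was left out. 1434930_at differed by -0.35 (SE 0.12) and 1451771_at by -0.21 (SE 0.13), so the 3 probe sets had 1 direction and sizes within 0.27 of each other.

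Among the MiT/TFE factors, Tfec alone read higher. Tfec encodes TFEC, the family member known mainly from macrophages and osteoclasts, where it is induced by IL-4 through STAT6. It read 8.85 and 8.69 on the unstimulated arrays and 10.20 and 10.24 on the zymosan arrays. Both groups were tight, and the gap between them was wide beside the gap within either. The difference was 1.45 (SE 0.11), a 2.73-fold higher level, and stayed within 1.37 and 1.53 when each array was left out.

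Tfeb encodes TFEB, the main driver of the CLEAR network. It read 7.50 and 7.39 on the unstimulated arrays and 7.10 and 6.99 on the zymosan arrays. The zymosan arrays were the lower pair, with equal gaps inside each pair. The difference was -0.40 (SE 0.11), with -0.46 to -0.35 when each array was left out. Tfe3, whose product TFE3 acts beside TFEB in macrophages, read 9.05 and 9.10 without zymosan and 8.98 and 8.95 with it, a difference of -0.11 (SE 0.10). That was the smallest difference in size among the 17 probe sets.

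Mitf encodes the microphthalmia-associated factor, which is needed for pigment cells and acts in osteoclasts. 1455214_at read 9.82 and 10.02 on the unstimulated arrays and 9.69 and 9.64 on the zymosan arrays, a difference of -0.25 (SE 0.12). The zymosan arrays were lower, and the difference was little larger than the gap inside the unstimulated pair. 1422025_at read 5.16 and 6.35 without zymosan and 4.87 and 4.80 with it. Its unstimulated arrays stood 1.19 apart, wider than 99.6% of kept probe sets. The difference of -0.92 (SE 0.37) was -0.32 without unstimulated replicate 2 and -1.51 without unstimulated replicate 1.

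**Figure D4:**
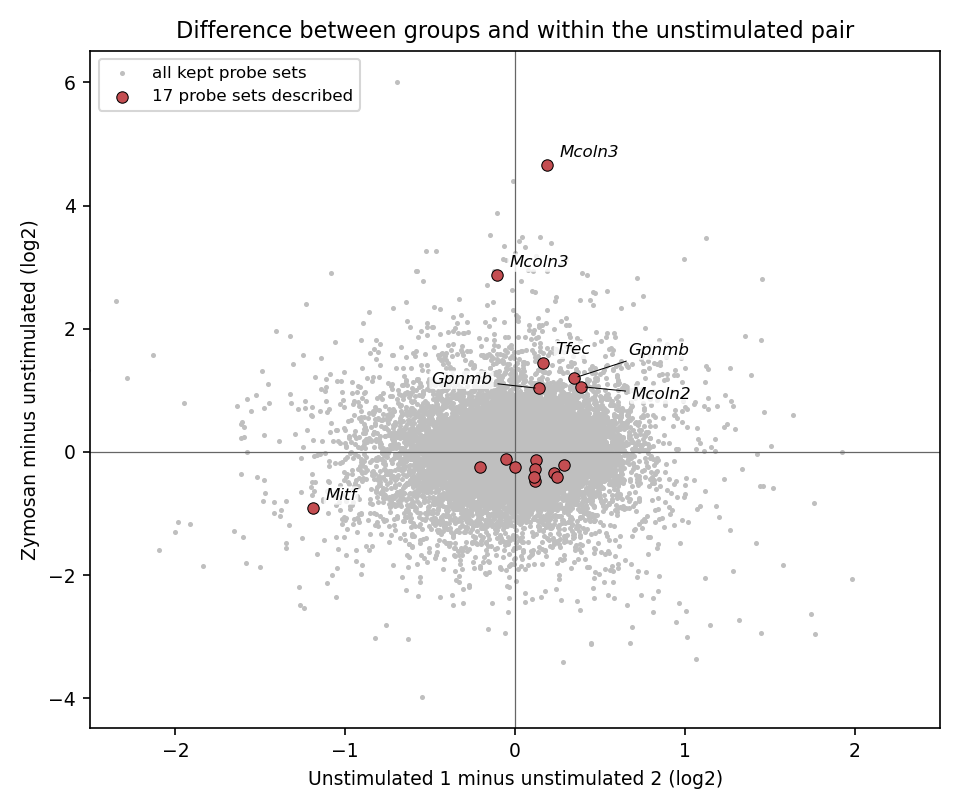
Zymosan minus unstimulated on the log2 scale (vertical axis) against unstimulated replicate 1 minus replicate 2 (horizontal axis, cut at 2.5 on either side, which leaves out 5 of 27571 probe sets), for all kept probe sets in grey and the 17 probe sets marked. Mitf 1422025_at lies at -1.19 on the horizontal axis, while Mcoln3 and Tfec stand high with pair differences between -0.11 and 0.19.

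Gpnmb encodes a transmembrane glycoprotein of melanosomes and lysosomes that is abundant in macrophages and a known target of Mitf and TFE3. 1448303_at read 12.38 and 12.24 on the unstimulated arrays and 13.34 on both zymosan arrays. This was already among the high signals of the array without zymosan, and the zymosan arrays did not differ at the printed precision. The difference was 1.03 (SE 0.11), a 2.04-fold higher level. 1439345_at read 8.52 and 8.17 without zymosan and 9.56 and 9.53 with it, a difference of 1.20 (SE 0.14), or 2.29-fold. Both probe sets had the zymosan arrays as the upper and the tighter pair.

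With 1 probe set per gene, the one of highest mean, the genes were placed among 13222 genes ordered by fitted difference. Mcoln3 has only a bound and is given no place. Counted from the highest difference, Tfec was at place 124, Mcoln2 at 248 and Gpnmb at 266. Counted from the lowest, Tpcn2 was at 1131, Tfeb at 1202, Tpcn1 at 1451, Mitf at 2193, Mcoln1 at 3778 and Tfe3 at 4188. The median gene differed by 0.00, with quartiles of -0.16 and 0.21. The higher genes thus lay far outside the quartiles, whereas Mcoln1 and Tfe3 lay inside them by these probe sets. The other Mcoln1 probe sets, at -0.24 and -0.28, lay below the lower quartile.

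For the genes that stood out, the genes of most like pattern were found by the root mean square distance between the log2 values of the 4 arrays, each gene centred on its own mean. With 4 arrays in 2 groups this finds genes with a difference of the same size. Nearest to Mcoln3 were Csf1, which encodes M-CSF, at a distance of 0.15, and Egr2, a zinc finger factor, at 0.58. Csf1 read 6.28 and 6.29 without zymosan and 10.69 and 10.68 with it. Ptgs2, the inducible cyclooxygenase gene, stood at 0.59, Mmp8 at 0.67 and Cxcl3 at 0.67. Few genes had a difference of that size, so a sparse neighbourhood followed from the size itself. Both unstimulated values of Mcoln3 lay below the detection level, so its distances rest partly on values that are only bounds. The other Mcoln3 probe set, with a difference of 2.86, was not used here.

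Tfec and Gpnmb had smaller differences, which more genes share, so their nearest genes lay closer. Nearest to Tfec were Mindy2 at 0.024, P2ry10b at 0.040, Fabp3 at 0.047, the zinc exporter gene Slc30a1 at 0.047 and Gpd2 at 0.059. Nearest to Gpnmb were Resf1 at 0.018, P4ha1 at 0.020, Klf3 at 0.023, Cdk6 at 0.026 and Eya1 at 0.027. Their differences lay between 1.33 and 1.53 for the genes near Tfec and between 1.004 and 1.06 for those near Gpnmb.

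The other genes of the pathway were read from 8 lists of 196 distinct genes, 182 of them tested in the limma fit over 13222 genes. In that fit 10.1% of genes passed as higher and 6.73% as lower at an adjusted p under 0.05. Over the 182 genes 27 rose and 16 fell, with a median difference of 0.03. When either zymosan array was left out (zymosan replicate 1 or 2), 9 passed as higher and 2 as lower. With hybridisation day as a random block, in the estimate that gave a correlation of 0.57 within a day, 11 passed as higher and 6 as lower. Only the zymosan arrays shared a day, so that correlation compares the spread of the zymosan pair with that of the unstimulated pair. The block cannot tell a day effect from unequal spread of the groups, nor day from zymosan. With the probe set of largest variance for each gene, 31 passed as higher and 29 as lower. The adjusted p-values of the day block below come from that estimate; under the other estimate, in the closing section, each named gene kept its side of the threshold. Each list is described by its counts and median beside those of all genes, and 4 genes of lowest p are named for each.

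Of 28 other endolysosomal channels and transporters 4 rose and 0 fell (8 and 0 at an unadjusted p under 0.05), with a median difference of 0.11. Slc15a3, a lysosomal carrier of bacterial dipeptides, rose by 0.86 (SE 0.13, adjusted p = 0.0125). It read 10.29 and 9.96 without zymosan and 11.02 and 10.95 with it. Clcn3, an endosomal chloride-proton exchanger, rose by 0.70 (SE 0.11, adjusted p = 0.0132). Npc1, the lysosomal cholesterol exporter, rose by 0.60 (adjusted p = 0.0217), and Ostm1, the partner of the lysosomal exchanger ClC-7, by 0.49 (adjusted p = 0.0422). With the day block limma passed Slc15a3 (adjusted p = 0.0431) but not Clcn3 (adjusted p = 0.0677), Npc1 (adjusted p = 0.0914) or Ostm1 (adjusted p = 0.136). Without zymosan replicate 1, or without zymosan replicate 2, limma passed 0 of the 28 genes in either direction, against 6 higher and 0 lower at an unadjusted p under 0.05 in each fit.

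Of 16 genes listed around PI(3,5)P2 and NAADP, 1 rose and 2 fell, with a median difference of -0.09. The list is wider than the enzymes of that lipid and the NAADP genes, and also holds Inpp4b, Inpp5e, Itpr2 and Itpr3. Mtmr4, a lipid phosphatase of the myotubularin family, fell by 0.46 on the log2 scale (adjusted p = 0.0332). Inpp4b, a phosphatase of PI(3,4)P2, fell below the detection level on both zymosan arrays (adjusted p = 0.0452). It was kept through the unstimulated arrays only, so its call rests partly on the filter. For Pikfyve, the kinase that makes PI(3,5)P2, the probe set of highest mean rose by 0.41 (adjusted p = 0.0381), while another probe set differed by -0.49, also past the threshold in the fit over probe sets, so its direction depends on the probe set. Lsm12, an NAADP receptor component, did not pass at -0.37 (adjusted p = 0.0523), while its other probe set differed by -1.06 and was past the threshold as lower in the fit over probe sets. With the day block limma passed 0 genes of this list (1 higher and 3 lower at an unadjusted p under 0.05), with adjusted p of 0.126 for Mtmr4, 0.178 for Inpp4b and 0.148 for Pikfyve. Without zymosan replicate 1 and without zymosan replicate 2 the fits passed 0 genes of this list, with 2 higher and 3 lower, and 1 higher and 2 lower, at an unadjusted p under 0.05. The counts were 0 higher and 3 lower without unstimulated replicate 1, and 1 and 0 without unstimulated replicate 2.

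Among 32 genes of the calcineurin and mTORC1 arms that control MiT/TFE location, 4 rose and 3 fell, with a median difference of 0.00. Rcan1, a calcineurin inhibitor whose own transcription follows calcineurin activity, read 7.58 and 7.59 without zymosan and 9.92 and 9.85 with it. It rose by 2.30 (SE 0.10, adjusted p = 0.000313), a 4.91-fold higher level, and its other probe set differed by 1.17. The catalytic subunit gene Ppp3ca fell by 0.83 (adjusted p = 0.00828).

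The Rag GTPases recruit mTORC1 to the lysosome, and their genes moved in both directions. Rragd, itself a CLEAR gene, read 6.67 and 6.52 without zymosan and 8.26 and 8.19 with it, and rose by 1.63 (SE 0.11, adjusted p = 0.00103). Rraga read 9.14 and 9.35 without zymosan and 7.57 and 7.14 with it, and fell by 1.89 (SE 0.17, adjusted p = 0.00269), a 3.70-fold lower level. Rcan1, Rragd and Rraga were past the threshold without each array in turn, and Ppp3ca was not without zymosan replicate 1 or zymosan replicate 2. The list passed 2 higher and 1 lower gene in each of those 2 fits.

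Of 45 genes listed for the lysosomal part of the CLEAR network, Mcoln1 left out, 5 rose and 3 fell, with a median difference of 0.08. The list as drawn up also names Hif1a, a transcription factor gene. The lysosomal hydrolase genes lay in both directions. Ids, iduronate sulfatase, fell by 0.79 (SE 0.10, adjusted p = 0.00717), and its other 3 probe sets differed by -1.30 to -0.43. Ctsf, cathepsin F, fell by 0.88 (adjusted p = 0.0102), while its other probe set differed by 0.01. Man2b1, lysosomal alpha-mannosidase, fell by 0.56 (adjusted p = 0.0193), and Tpp1, tripeptidyl peptidase, rose by 0.48 (adjusted p = 0.0302). With the day block Ids (adjusted p = 0.0357) and Ctsf (adjusted p = 0.0416) passed, Man2b1 (adjusted p = 0.0798) and Tpp1 (adjusted p = 0.133) did not, and limma passed 0 of the list as higher (8 at an unadjusted p under 0.05). Without zymosan replicate 1 and without zymosan replicate 2 the fits passed 0 of the 45, with 5 higher and 4 lower, and 7 higher and 3 lower, at an unadjusted p under 0.05. Without unstimulated replicate 1 they passed 9 higher and 4 lower, and without unstimulated replicate 2 3 higher and 4 lower.

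Of 27 autophagy genes of the network 3 rose and 2 fell, with a median difference of 0.11. Rragd, described above, led them. Sqstm1, the autophagy receptor p62, rose by 0.81 (SE 0.15, adjusted p = 0.0208), and its other probe set differed by 0.15. Wipi1, a phosphoinositide-binding protein of the forming autophagosome, fell by 0.48 (adjusted p = 0.0236), and Atg5, part of the conjugation machinery, rose by 0.56 (adjusted p = 0.0308). With the day block Sqstm1 (adjusted p = 0.0653), Wipi1 (adjusted p = 0.1004) and Atg5 (adjusted p = 0.109) did not pass. Without zymosan replicate 1 or zymosan replicate 2 only Rragd of these 4 was past the threshold.

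**Figure D5:**
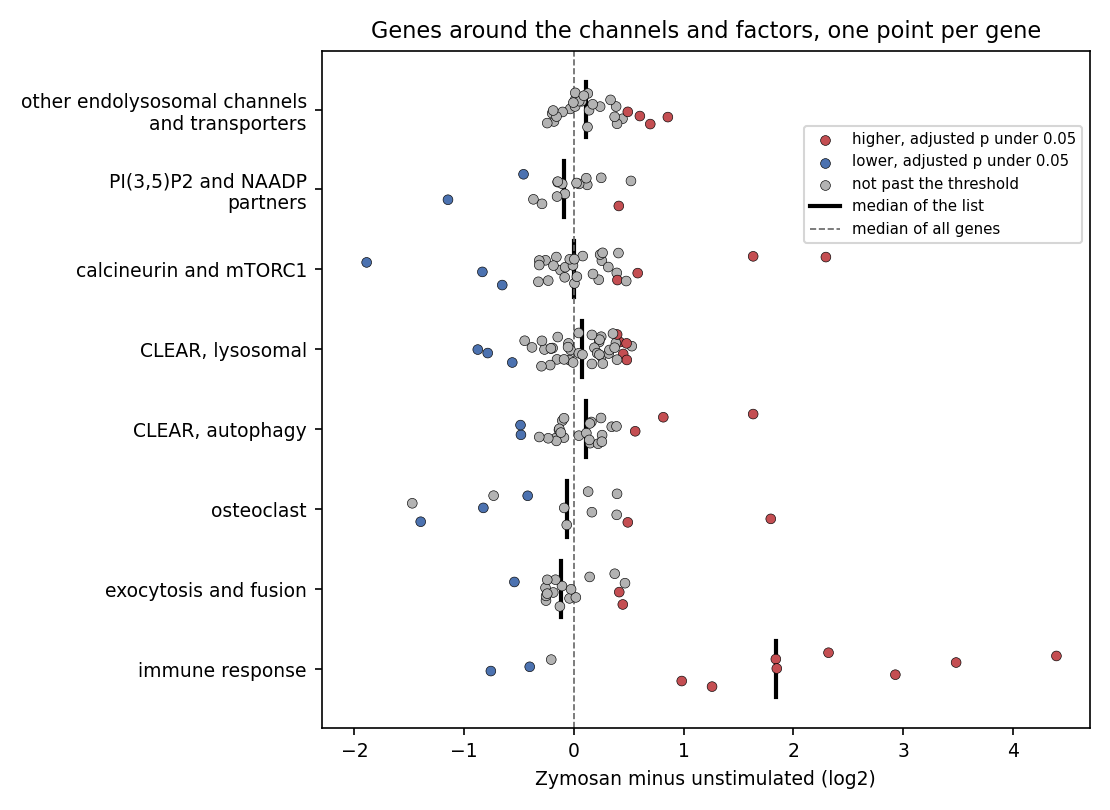
Zymosan minus unstimulated on the log2 scale (horizontal axis) for every tested gene of the 8 pathway lists, 1 row per list, with genes past the threshold in red (higher) or blue (lower), a bar at the list's median and a dashed line at the median of all genes. The medians of 7 lists lie between -0.12 and 0.11, and that of the macrophage immune response list at 1.84.

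Of 13 osteoclast genes listed as linked to Mitf 2 rose and 3 fell, with a median difference of -0.07. Whether Mitf binds or controls each of these genes was not tested. Ctsk, the bone-resorbing protease cathepsin K, read 5.39 and 5.14 without zymosan and 7.10 and 7.02 with it. It rose by 1.79 (SE 0.12, adjusted p = 0.00118), a 3.47-fold higher level. Tnfrsf11a, which encodes the receptor RANK, read 7.97 and 7.99 without zymosan and 6.62 and 6.55 with it, and fell by 1.40 (SE 0.10, adjusted p = 0.0013). Nfatc1, the master factor of osteoclasts, fell by 0.83 (adjusted p = 0.0121), while its other 3 probe sets differed by -0.31 to 0.15. Ostm1 rose by 0.49 and was not past the threshold with the day block, as given above. Ctsk and Tnfrsf11a were past the threshold without each array in turn. The list passed 1 higher and 1 lower gene without either zymosan array, 4 and 4 without unstimulated replicate 1, and 1 and 3 without unstimulated replicate 2.

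Of 18 genes of lysosomal exocytosis and membrane fusion 2 rose and 1 fell, with a median difference of -0.12. The SNARE genes Stx8 and Vti1b rose by 0.45 (adjusted p = 0.0291) and 0.41 (adjusted p = 0.0385). Rab11fip2, an effector of recycling endosomes, fell by 0.54 (adjusted p = 0.0267), and Stx4a did not pass at 0.37 (adjusted p = 0.0786). With the day block limma passed 0 of the 18 (3 higher and 1 lower at an unadjusted p under 0.05), with adjusted p of 0.118 for Stx8, 0.153 for Vti1b and 0.124 for Rab11fip2. Without zymosan replicate 1 and without zymosan replicate 2 the fits passed 0 of the 18, with 1 higher and 1 lower, and 3 higher and 1 lower, at an unadjusted p under 0.05. Without unstimulated replicate 1 they passed 3 higher and 2 lower, and without unstimulated replicate 2 1 higher and 2 lower.

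The list of immune response genes linked to the MiT/TFE factors in macrophages was the one whose median lay away from 0. Whether each of these genes depends on those factors was not tested. Of 11 genes 8 rose and 2 fell, with a median difference of 1.84; the list was drawn up with earlier results of these arrays known, so its direction is not independent evidence. Csf1 rose by 4.40 (SE 0.09, adjusted p = 9.68e-05), and its other 3 probe sets differed by 0.25 to 3.32. Acod1, whose product makes itaconate, read 6.88 and 7.00 without zymosan and 9.85 and 9.88 with it, and rose by 2.93 (SE 0.10, adjusted p = 0.000184). Il1b rose by 1.84 (adjusted p = 0.000777). Ptgs2 read 3.56 and 3.51 without zymosan, below the detection level, and 6.86 and 7.18 with it (adjusted p = 0.000223). It was kept through the zymosan arrays only, so its call rests partly on the filter. These 4 were past the threshold without each array in turn; the list passed 6 higher and 0 lower genes without either zymosan array, with 8 and 2 at an unadjusted p under 0.05.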

How the data were processed

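RNA of 4 mouse macrophage samples (2 unstimulated, 2 zymosan) was read on Affymetrix arrays. The authors deposited log2 expression values per probe set, made with RMA per the submitters' processing notes. The RMA version is not given in the sources used here, and scanner images were not used. The table held 45101 probe sets. After 64 control probe sets were left out, 34945 had 1 symbol in GEO's platform annotation, 932 several and 9160 none. Groups came from the labels.

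Probe sets at or above the 40th percentile of an array on at least 2 arrays were kept (27571). A gene took the kept single-symbol probe set of highest mean (13222 genes). limma 3.58.1 in R 4.3.3 (lmFit, eBayes) compared the groups. Its p-values were adjusted by Benjamini and Hochberg's method across every probe set or gene in the fit, and 0.05 was the threshold. The fit was tested on simulated data. For 2 arrays against 2, an exact 2-sided permutation test cannot go below p = 0.333, so none was run. The number of arrays limits the precision.

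The genes and gene lists, including the marker lists, were chosen with earlier results of these data known. Per list, the 4 genes of lowest p were named. The motifs and the window searched were settled after their matches in these promoters had been seen: a looser EGR motif and a shorter window were searched first. Alternatives were other filters, scalings, variance models and probe sets per gene, leaving out each array, and hybridisation day as a random block. duplicateCorrelation in limma returned no value for this layout, so the day correlation was computed with statmod 1.5.0 in 2 ways, and both results are given.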

Additional observations from a re-analysis of the deposited data

How the results depend on the processing

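Directions of the 17 probe sets were the same under all alternatives run. With hybridisation day as a random block, the number of calls rested on how the correlation within a day was estimated. One correlation per row, averaged over rows as duplicateCorrelation does, gave -0.05 over probe sets and 0.04 over genes. It passed 2478 probe sets as higher and 2158 as lower, and 1294 and 861 genes. Variance components averaged over rows before the ratio was taken gave 0.54 and 0.57, and passed 741 and 647 probe sets and 453 and 307 genes. The second estimator was adopted as the day block after the outcome of the first had been seen and with the counts of an earlier analysis known; the first was then kept as an alternative chosen after seeing the data. With the second, calls higher and lower were 6 and 0 for the 17 probe sets, 1 and 0 for channels and transporters, 0 and 0 for PI(3,5)P2 and NAADP, 2 and 2 for calcineurin and mTORC1, 0 and 2 for CLEAR lysosomal, 1 and 0 for CLEAR autophagy, 1 and 2 for osteoclast, 0 and 0 for exocytosis 7 and 0 for immune response genes and 11 and 6 over all lists. With the first, the 17 gave 6 and 1 and no list left the range of 1.5 times its count. At an unadjusted p under 0.05 the second gave 8 and 4 for CLEAR lysosomal, 1 and 3 for PI(3,5)P2 and NAADP and 3 and 1 for exocytosis genes.

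Leaving out each array in turn gave 231 to 2531 higher and 157 to 2280 lower probe sets, and 161 to 1782 higher and 100 to 1133 lower genes, with the lowest counts when a zymosan array was left out. The ranges, higher then lower, were 3 to 6 and 0 to 2 for the 17 probe sets, 0 to 5 and 0 to 0 for channels, 0 to 1 and 0 to 3 for PI(3,5)P2 and NAADP, 2 to 5 and 1 to 4 for calcineurin and mTORC1, 0 to 9 and 0 to 4 for CLEAR lysosomal, 1 to 4 and 0 to 2 for CLEAR autophagy, 1 to 4 and 1 to 4 for osteoclast, 0 to 3 and 0 to 2 for exocytosis 6 to 8 and 0 to 2 for immune response genes and 9 to 34 and 2 to 20 over all lists.

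The filter at the 60th percentile kept 15 of the 17 and passed 2 of them as lower, adding Tfeb. The filter on the mean kept 14 and passed Tfeb as lower. It removed Tpcn1 1451772_at, which was therefore not tested under that filter. The shares of all probe sets passing under these 2 filters are not given here, and nothing is read from these calls. Both filters gave 2 higher PI(3,5)P2 and NAADP genes, 8 higher CLEAR lysosomal genes, 0 lower exocytosis genes and 1 lower immune gene. With no filter 1 PI(3,5)P2 and NAADP gene passed as lower, and 3 CLEAR lysosomal, 1 osteoclast and 1 exocytosis gene as higher. The probe set of largest variance per gene gave 1491 lower genes, 29 of them in the lists, among them 2 channel, 5 PI(3,5)P2 and NAADP, 5 calcineurin and mTORC1, 10 CLEAR lysosomal, 2 exocytosis and 1 immune gene, with 1 higher exocytosis gene, and turned Pikfyve to -0.49. An intensity trend with robust estimation gave 5 lower calcineurin and mTORC1 genes, and 11 higher and 5 lower CLEAR lysosomal genes. Of the tests of the 30 named genes under these settings, 315 kept their side of the threshold and direction, 64 lost it and 5 gained it. No paired analysis was possible because the labels give the arrays no replicate numbers; those used here follow the order of deposit and pair nothing.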
